A study of Mus musculus with 6 samples.

Results

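The regulators of the first gap phase (G1) of the cell cycle were examined as 10 genes, taken by symbol. The rule used no measured value, although earlier results of these data were known when the genes were chosen. They are the D cyclins *Ccnd1*, *Ccnd2* and *Ccnd3*, the kinases *Cdk4* and *Cdk6*, the CIP/KIP inhibitors *Cdkn1a* (p21), *Cdkn1b* (p27) and *Cdkn1c* (p57), and the INK4 inhibitors *Cdkn2a* and *Cdkn2c* (p18). All 10 were among the 17854 genes of the table, and all 10 passed the filter on low counts that left 14289 genes for testing. Bulk RNA sequencing compared 2 groups of Tomato+ cells sorted from the cartilage of the mouse knee, with 3 libraries in each. The MSC-derived group (InjectPrrx) came from male C57BL/6 recipients whose anterior cruciate ligament had been transected to induce osteoarthritis. Their joints had received mesenchymal stem cells (MSCs), sorted as Tomato+ cells from the inguinal white adipose tissue of Prrx1-Cre; R26tdTomato donors and injected without culture. The endogenous group (NativePrrx) held the Tomato+ cells of the joint cartilage of age- and sex-matched Prrx1-Cre; R26tdTomato mice.

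In both groups the Tomato label came from the same alleles, a Cre driven by Prrx1 and a reporter at the Rosa26 locus. It marks every descendant of a cell that once expressed this Cre, which is active in limb mesenchyme, and it does not mark a cell type. The sort used Tomato fluorescence alone. The source of the cells, the host and the injection changed between the groups, as the surgery may have, and these cannot be told apart. The recipients were young adults at surgery and were injected weeks later. Per the methods 3 mice were used for each group, which is also the number of libraries, but which mouse each library came from, the exact age at harvest and any surgery on the endogenous mice are not given in the sources used here. P-values therefore measure the spread between libraries.

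D cyclins are made in response to growth signals and bind CDK4 or CDK6. The active pair phosphorylates RB, which releases E2F factors and lets the genes of DNA synthesis be transcribed. INK4 proteins bind CDK4 and CDK6 and keep cyclin D away. CIP/KIP proteins bind whole cyclin and kinase complexes and block CDK2 most strongly. In the growth plate, p57 is known for its part in the exit of chondrocytes from division before hypertrophy, and cyclin D1 for its part in their division. Cyclin D3 is known for its role in dividing blood cell precursors.

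The libraries held between 22060628 and 24881796 expected counts, so that 3 counts correspond to between 0.121 and 0.136 CPM (counts scaled to a common library total). The biological coefficient of variation was 6.77% among the MSC-derived libraries and 35.3% among the endogenous ones. Endogenous replicate 1 stood apart, with 3459 genes at 0 against 1338 and 1395 in the other two. Values without it are given below for some genes and lists. Those given only with all libraries can also depend on it. Both groups carry the label chondrocyte and the strain C57BL/6. In the endogenous libraries chondrocyte markers were high, but osteoblast markers summed to higher levels, and erythroid and neutrophil markers were present. Marker genes go against the chondrocyte label for the MSC-derived libraries. Mesenchymal markers were lower there too and blood cell markers were higher, as given below, so the name MSC-derived follows the labels and methods and not the markers. *Prrx1* itself lay between 15.0 and 17.4 CPM in these libraries and between 62.4 and 89.7 CPM in the endogenous ones. Marker levels are given as the summed TPM of each list in the libraries, a scale per transcript length. A gene named in brackets has the most counts of its list, and the values beside it are sums over the whole list. Among all genes tested 31.3% were higher in MSC-derived libraries and 30.3% lower. All 10 chondrocyte markers were lower in the MSC-derived libraries, where they summed to between 438.1 and 450.6 TPM against 23196 to 25136, and *Col2a1* had the most counts among them. All 6 osteoblast markers (*Bglap* most abundant, 234.2 to 249.6 against 29794 to 49214 TPM) and all 9 mesenchymal markers (*Col1a1*, 2105 to 2134 against 35287 to 45034 TPM) were lower too. All 8 pan-leukocyte markers (*Laptm5*, 8567 to 8773 against 332.1 to 478.1 TPM), all 10 macrophage markers (*Lyz2*, 25657 to 26435 against 667.2 to 826.9 TPM) and all 8 neutrophil markers (*S100a8*, 146910 to 155599 against 8158 to 11505 TPM) were higher. All 9 erythroid markers were higher (*Hba-a2*, 79173 to 81481 against 18204 to 24589 TPM), as were 4 of 6 B cell markers (*Cd79b*, 226.8 to 245.1 against 21.6 to 29.8 TPM). For T and NK cells 6 of 8 markers were higher (*Cd4*, 204.6 to 215.7 against 27.5 to 31.0 TPM), and for endothelium 4 of 6 (*Pecam1*, 27.5 to 31.2 against 9.74 to 15.5 TPM). No marker in these lists was at 0 in an MSC-derived library, while *Vpreb1*, *Cd3e*, *Cd3g*, *Klrb1c* and *Emcn* were at 0 in at least 1 endogenous library. The part of these cell types in the differences given below was not tested, and in bulk samples fewer cells of a type cannot be told apart from less RNA per cell.

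The main comparison asked how the libraries labelled MSC-derived differ from the endogenous ones. Of the 10 genes, *Ccnd3* and *Cdkn1b* were higher in MSC-derived libraries, *Ccnd1*, *Cdkn1a* and *Cdkn1c* were lower, and the other 5 did not pass the test (edgeR's quasi-likelihood test, adjusted p of 0.05 or less over all genes tested). The changes that passed ran from 10.7-fold lower for *Cdkn1c* to 2.34-fold higher for *Ccnd3*. Across all tested genes 61.6% passed, 31.3% as higher and 30.3% as lower. The 50% of the regulators that passed is near that share, so the count is no result about them. Their median log2 fold change, MSC-derived minus endogenous, was 0.27, against 0.05 over all genes tested. In TMM-scaled CPM, for 8 of the 10 genes every library of one group lay above every library of the other. This held for 72.4% of all genes tested. Levels of single genes below are CPM after scaling by TMM, a method that centres the bulk of genes between libraries.

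**Figure D1:**
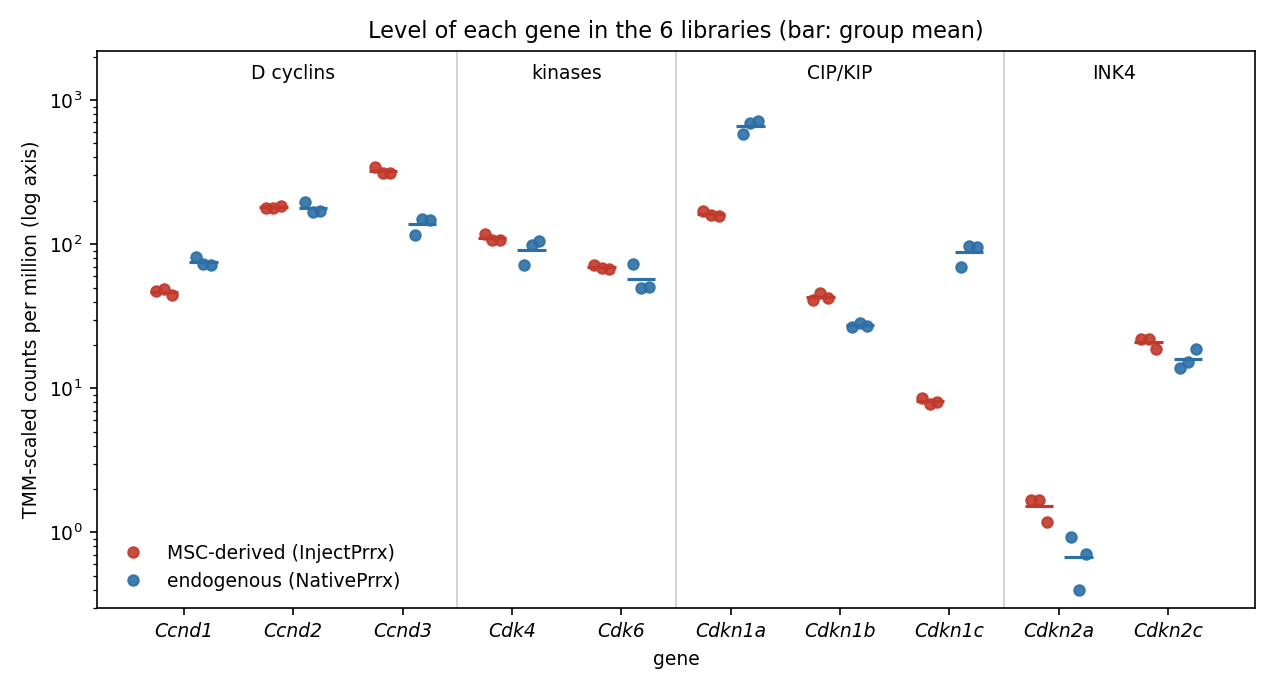
Level of each of the 10 genes in each of the 6 libraries, in TMM-scaled CPM on a log axis. Points are libraries and the short lines are group means. *Cdkn1c* and *Cdkn1a* show the widest gaps between the groups, while the points of *Ccnd2* and *Cdk6* overlap.

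Among the D cyclins *Ccnd3* was higher in MSC-derived libraries, *Ccnd1* was lower and *Ccnd2* did not pass the test. *Ccnd3*, the cyclin D3 gene, stood at 342.3, 310.5 and 313.8 CPM in the MSC-derived libraries 1 to 3 and at 116.3, 149.0 and 147.9 CPM in the endogenous ones. Each MSC-derived library was more than double any endogenous one. The log2 fold change was 1.23 (SE 0.11, adjusted p = 4.99e-05), or 1.06 without endogenous replicate 1, the lowest library. *Ccnd1*, the cyclin D1 gene, stood at 47.3, 49.1 and 44.4 CPM against 81.9, 72.7 and 72.0 CPM. The groups were well separated, with a log2 fold change of -0.69 (SE 0.09, adjusted p = 0.000504), a 1.61-fold lower level. *Ccnd2*, the cyclin D2 gene, was at 178.1, 179.1 and 183.1 CPM against 196.2, 168.6 and 170.5 CPM. Endogenous replicate 1 lay above the MSC-derived values and the other two below them, and the difference was 0.01 on the log2 scale (SE 0.08, adjusted p = 0.896).

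RefSeq's promoter windows on GRCm38.p6 hold 2 starts for *Ccnd3* and none for *Ccnd1* or *Ccnd2*. The window of the downstream *Ccnd3* start is shown because this is the member with the largest rise. It covers chr17:47593217-47593435 on the plus strand and ends 32 bases before the start. Capitals mark a GC box, searched as GGGCGG on both strands, and a CCAAT box, searched as CCAAT on both strands.
Ccnd3: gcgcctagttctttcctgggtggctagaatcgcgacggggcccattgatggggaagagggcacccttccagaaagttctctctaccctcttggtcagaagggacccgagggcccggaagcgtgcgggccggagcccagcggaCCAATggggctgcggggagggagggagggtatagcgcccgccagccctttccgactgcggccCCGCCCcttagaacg
The GC box letters occur in 35.66% and the CCAAT letters in 37.41% of all 32851 windows of the same kind, which run from 250 bases before to 50 after a start. These matches describe the letters only.

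On the opposite strand, *Ccnd1* shares exon sequence with *LTO1* and *Ccnd3* with *Bysl* in the GENCODE M21 annotation. The library kit does not mark strand, so reads from the shared stretch could count for either gene. *LTO1* lay between 10.4 and 14.9 CPM in the 6 libraries, with a log2 fold change of 0.18 (adjusted p = 0.382). *Bysl* lay between 11.1 and 22.0 CPM, with a log2 fold change of 0.03 (adjusted p = 0.940). Both were well below the cyclin genes they overlap. *Ccnd2*, *Cdk6*, *Cdkn1a* and *Cdkn1c* also share exon sequence with genes on the opposite strand, none of them annotated as protein-coding. The levels of those genes were not examined, so the same uncertainty holds there.

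Neither kinase gene passed the test. *Cdk4*, the main partner of D cyclins in most cells, stood at 117.4, 107.3 and 106.4 CPM in the MSC-derived libraries and at 71.2, 98.9 and 105.0 CPM in the endogenous ones. The highest endogenous library came within a few CPM of the lowest MSC-derived one. Its log2 fold change was 0.27 (SE 0.15, adjusted p = 0.153), which fell to 0.06 without endogenous replicate 1. *Cdk6*, its paralog, was at 71.9, 68.7 and 67.8 CPM against 72.6, 49.6 and 50.8 CPM. Here endogenous replicate 1 matched the MSC-derived level while the other two were lower. The log2 fold change of *Cdk6* was 0.27 (SE 0.15, adjusted p = 0.170), and 0.41 without endogenous replicate 1, where it passed (adjusted p = 1.43e-05). With TPM tested by limma, both *Cdk4* and *Cdk6* took a negative value of -0.15 that did not pass, as described with the scales below.

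*Cdk4* overlaps *Tspan31*, a tetraspanin gene, on the opposite strand. *Tspan31* was at 113.7 ± 2.22 CPM (SD, n = 3) in MSC-derived and 153.2 ± 3.58 CPM (SD, n = 3) in endogenous libraries. This difference of -0.43 on the log2 scale passed (SE 0.07, adjusted p = 0.00101). The counts of the pair are of like size and those that fall in the shared exons could have been assigned to either gene, so the value of *Cdk4* carries that uncertainty.

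The CIP/KIP inhibitors held the largest falls of the family. *Cdkn1a* and *Cdkn1c* were lower in MSC-derived libraries and *Cdkn1b* was higher. *Cdkn1a* encodes p21, the inhibitor that p53 induces. It stood at 169.3, 160.1 and 155.9 CPM in the MSC-derived libraries against 585.9, 693.1 and 720.0 CPM in the endogenous ones. The groups lay far apart, with a log2 fold change of -2.04 (SE 0.09, adjusted p = 1.41e-06), a 4.12-fold lower level. *Cdkn1c*, the imprinted gene of p57, was at 8.64, 7.84 and 8.05 CPM against 69.8, 97.9 and 95.6 CPM. Even the lowest endogenous library was several times above every MSC-derived one. Its log2 fold change of -3.42 (SE 0.16, adjusted p = 1.53e-06) was the largest of the 10 genes in size. *Cdkn1b*, the gene of p27, was at 41.1, 45.7 and 42.5 CPM against 26.7, 28.3 and 27.2 CPM, a log2 fold change of 0.65 (SE 0.10, adjusted p = 0.000882). This rise of 1.57-fold was tight within each group, but on the TPM scale it was 0.20 and did not pass (limma, adjusted p = 0.109).

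**Figure D2:**
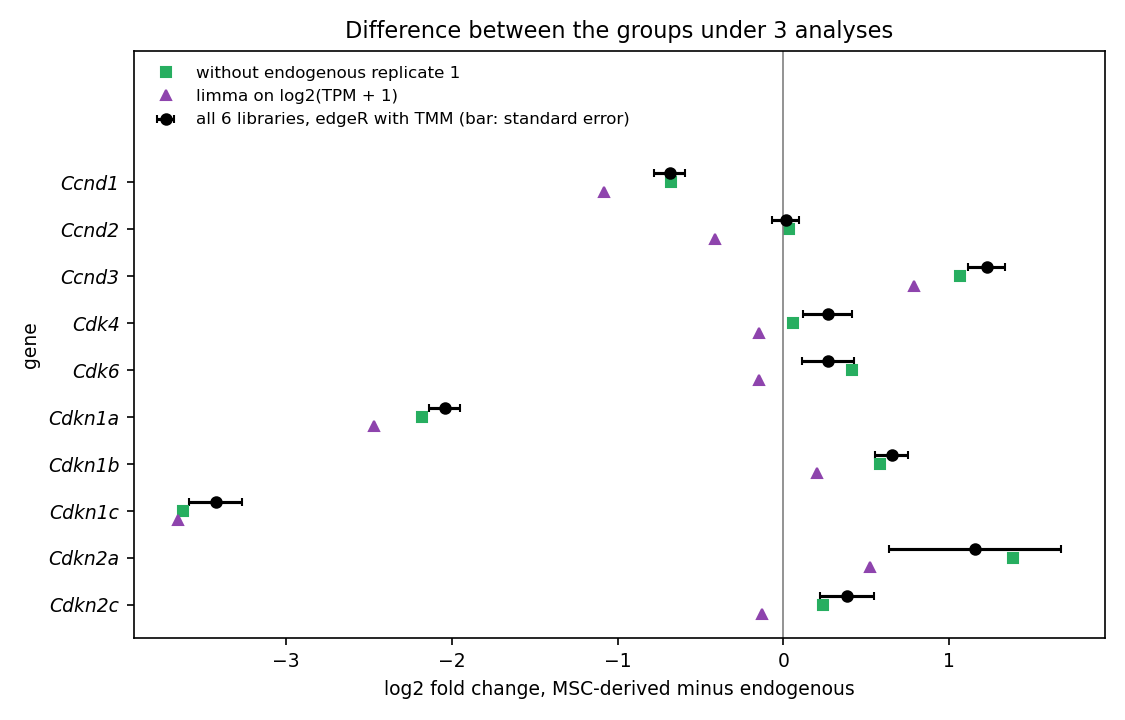
Log2 fold change, MSC-derived minus endogenous, of each gene. Black points are edgeR's estimates from all 6 libraries with bars of 1 standard error, green squares the estimates without endogenous replicate 1, and purple triangles limma's estimates on log2(TPM + 1). *Cdkn1a*, *Cdkn1c*, *Ccnd1* and *Ccnd3* keep their side of 0 in all 3, while *Ccnd2*, *Cdk4*, *Cdk6* and *Cdkn2c* cross it on TPM.

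Promoter windows were found for *Cdkn1a* and *Cdkn1b* and none for *Cdkn1c*. The downstream *Cdkn1a* start and the single *Cdkn1b* start are set beside each other because these inhibitor genes changed in opposite directions. They cover chr17:29093519-29093768 and chr6:134920151-134920400, both on the plus strand, and end at the base before the start. Capitals again mark GC boxes and CCAAT boxes.
Cdkn1a: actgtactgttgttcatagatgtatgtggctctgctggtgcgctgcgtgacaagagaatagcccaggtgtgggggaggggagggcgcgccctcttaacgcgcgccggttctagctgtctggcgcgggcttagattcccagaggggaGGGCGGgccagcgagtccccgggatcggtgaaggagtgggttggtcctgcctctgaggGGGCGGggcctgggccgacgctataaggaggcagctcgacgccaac
Cdkn1b: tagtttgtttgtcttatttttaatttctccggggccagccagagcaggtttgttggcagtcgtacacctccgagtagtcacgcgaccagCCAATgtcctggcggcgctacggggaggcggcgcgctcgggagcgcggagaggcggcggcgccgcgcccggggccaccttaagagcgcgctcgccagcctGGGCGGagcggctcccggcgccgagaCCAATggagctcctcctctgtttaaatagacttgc
The *Cdkn1a* window held 2 GC boxes and no CCAAT box, and the *Cdkn1b* window 1 GC box and 2 CCAAT boxes in the stretch shown. Of the 11 windows found for 7 of the 10 genes, 8 held GC box letters and 4 held CCAAT letters. TATAAA was in 1 of the 11, against 13.62% of all windows. The E2F-type letters TTTCCCGC, TTTCGCGC, TTTGCCGC or TTTGGCGC were in 1 of them, at the upstream start of *Cdkn2a*, against 2.265% of all windows.

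The INK4 genes did not pass the test. *Cdkn2a* had the fewest reads of the family, with 43, 41 and 27 counts in the MSC-derived libraries and 21, 9 and 17 in the endogenous ones. These equal 1.68, 1.68 and 1.18 CPM against 0.925, 0.398 and 0.711 CPM, so the groups did not overlap at a low level. Its log2 fold change was 1.15 (SE 0.52, adjusted p = 0.0903), and 1.38 without endogenous replicate 1, where it passed (adjusted p = 0.0168). With limma it also passed on both FPKM scales (adjusted p = 0.00859 and 0.0162). The locus makes p16INK4a and p19ARF from separate starts, and the table joins both in a single row. *Cdkn2c*, the gene of p18, was at 22.0, 21.9 and 18.8 CPM against 13.9, 15.3 and 18.8 CPM. Endogenous replicate 3 lay just under the lowest MSC-derived library, so that the groups are apart only by a margin far below the spread within them, and the log2 fold change was 0.38 (SE 0.16, adjusted p = 0.0724). Without endogenous replicate 3 it was 0.52 and passed (adjusted p = 0.0360), while on the TPM scale it was -0.13 and did not pass.

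TPM allows levels of different genes to be compared within a library. In MSC-derived libraries the order of mean TPM was *Ccnd3* (233.5 ± 13.4, SD, n = 3), *Cdkn1a* (120.2 ± 5.79), *Cdk4* (115.4 ± 6.84), *Ccnd2* (41.0 ± 0.320), *Cdkn1b* (24.9 ± 1.45), *Cdkn2c* (18.8 ± 1.34), *Ccnd1* (17.1 ± 0.972), *Cdk6* (7.75 ± 0.288), *Cdkn1c* (5.99 ± 0.329) and *Cdkn2a* (2.85 ± 0.568). *Cdkn1a* and *Cdk4* overlapped between libraries, as did *Cdkn2c* and *Ccnd1*, and the other neighbours in this order did not. In endogenous libraries *Cdkn1a* led (669.9 ± 25.9 TPM, SD, n = 3), followed by *Ccnd3* (134.9 ± 8.21), *Cdk4* (128.6 ± 17.1), *Cdkn1c* (87.0 ± 9.46), *Ccnd2* (55.5 ± 9.41), *Ccnd1* (37.7 ± 5.90), *Cdkn1b* (21.5 ± 1.27), *Cdkn2c* (20.7 ± 2.15), *Cdk6* (8.93 ± 2.82) and *Cdkn2a* (1.75 ± 0.850). There *Ccnd3* overlapped *Cdk4*, and *Cdkn1b* overlapped *Cdkn2c*. A D cyclin gene was thus the most abundant of the 10 transcripts in the MSC-derived libraries, and an inhibitor gene in the endogenous ones.

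The balance within each class was described by shares of summed TPM, with no test. *Ccnd3* made up 80.0% ± 0.936 (SD, n = 3) of D cyclin TPM in MSC-derived and 59.3% ± 5.35 in endogenous libraries. The share of *Ccnd2* was 14.1% ± 0.733 against 24.3% ± 3.31, and that of *Ccnd1* 5.87% ± 0.362 against 16.5% ± 2.04. None of these shares overlapped between groups, and endogenous replicate 1 had the lowest *Ccnd3* share, 53.1%. Of the kinase TPM *Cdk4* held 93.7% ± 0.140 against 93.3% ± 2.87, with 90.0% in endogenous replicate 1. Among CIP/KIP genes the share of *Cdkn1a* was 79.5% ± 1.05 against 86.1% ± 0.687. *Cdkn1b* took 16.5% ± 1.16 against 2.77% ± 0.280, and *Cdkn1c* 3.97% ± 0.149 against 11.2% ± 0.877. The second CIP/KIP transcript was therefore *Cdkn1b* in MSC-derived libraries and *Cdkn1c* in endogenous libraries.

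**Figure D3:**
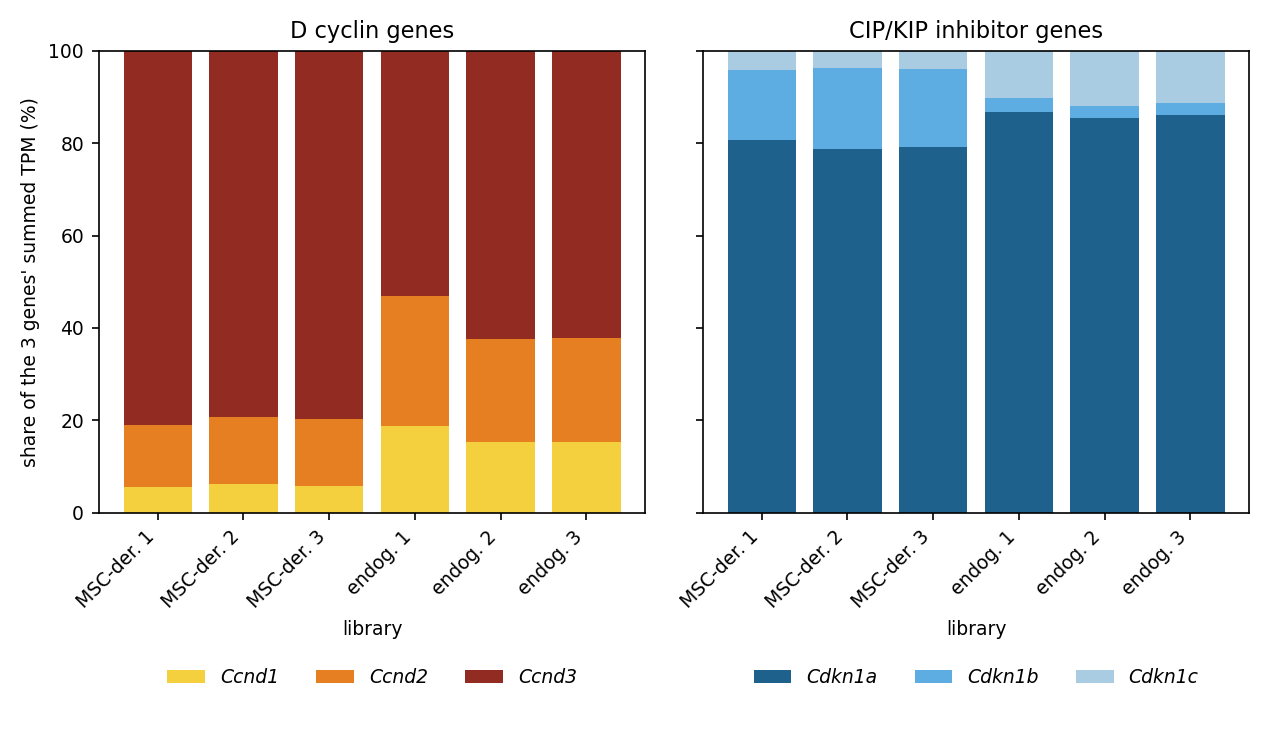
Share of each gene in the summed TPM of its class, in percent, in each of the 6 libraries (MSC-der., MSC-derived; endog., endogenous). The left panel stacks the D cyclin genes and the right panel the CIP/KIP genes, and every bar adds up to all of the class. *Ccnd3* holds 53.1% to 62.4% of the endogenous bars and 79.4% to 81.1% of the MSC-derived ones.

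Summed over its 3 genes, the D cyclin class held 291.7 ± 13.4 TPM (SD, n = 3) in MSC-derived and 228.0 ± 7.15 TPM in endogenous libraries. The kinase class held 123.1 ± 7.12 against 137.5 ± 14.5 TPM, and the libraries of the groups overlapped. CIP/KIP genes summed to 151.1 ± 5.79 against 778.5 ± 32.3 TPM, the widest gap of the classes. The 2 INK4 genes summed to 21.6 ± 1.91 against 22.5 ± 2.87 TPM, again with overlap. CIP/KIP TPM over D cyclin TPM was 0.518 ± 0.0109 in MSC-derived libraries and 3.42 ± 0.234 in endogenous ones. The ratio of *Cdkn1a* to *Ccnd3*, which does not depend on the scaling of a library, was 0.515 ± 0.00991 against 4.97 ± 0.185. *Ccnd3* over *Ccnd1* was 13.7 ± 0.931 against 3.66 ± 0.725. These are levels of mRNA, and protein or kinase activity was not measured.

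The choice of scale moves the smaller differences. With limma on log2(TPM + 1) the median of all genes tested was -0.28, against 0.05 with edgeR and TMM, a shift of -0.33, and 34.4% of called genes were higher instead of 50.8%. On that scale *Ccnd2* was -0.41 and passed as lower (adjusted p = 0.0209), although it stood at -0.13 relative to the median gene. *Cdk4* and *Cdk6* (both 0.13) and *Cdkn2c* (0.15) stayed above the median gene on the same scale. *Ccnd3* was 1.07, *Cdkn1b* 0.48, *Ccnd1* -0.80, *Cdkn1a* -2.19 and *Cdkn1c* -3.37 relative to it. All of these are differences on the log2(TPM + 1) scale, which understates those of low genes such as *Cdkn2a*.

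Other genes of the G1/S pathway were taken as lists, which hold 128 symbols beside the 10, with *Skp1* also entered under an old symbol. Of these, 123 were in the table and 120 were tested. Among the tested genes 56 were higher, 36 lower and 28 did not pass, with a median log2 fold change of 0.41. The share that passed was 76.7%, against 61.6% of all genes tested (31.3% higher and 30.3% lower). Refitted without endogenous replicate 1, the numbers called higher and lower were 65 and 45. The share of all genes called in that refit, or under the other settings used below, is not given. Changes in such counts are therefore no result about a list. Of the INK4 paralogs outside the family as listed, *Cdkn2d* (p19INK4d) stood at 98.9, 92.7 and 89.5 CPM against 24.7, 41.5 and 40.7 CPM. It was higher in every MSC-derived library, with a log2 fold change of 1.39 (SE 0.20, adjusted p = 0.000571). *Cdkn2b* (p15) did not pass, at -0.18 (SE 0.37, adjusted p = 0.696), with between 1.92 and 3.01 CPM in all 6 libraries. Of the 4 INK4 genes tested, *Cdkn2d* alone passed in edgeR with TMM and all 6 libraries.

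The list of G1/S kinases with the E and A cyclins also held the CDK-activating kinase and a phosphatase gene. It comprised 8 tested genes, with a median of 0.61. Of these 6 were higher, 2 lower and 0 without a call, against 61.6% called among all genes tested. *Ccna2* (cyclin A2) was at 58.4, 56.1 and 60.4 CPM against 18.2, 18.3 and 20.7 CPM, a log2 fold change of 1.61 (SE 0.10, adjusted p = 7.93e-06). *Cdk2*, the partner of cyclins E and A, was higher by 0.89 (SE 0.14, adjusted p = 0.00114). The E cyclins were higher by 1.24 for *Ccne1* (SE 0.45, adjusted p = 0.0445) and 0.72 for *Ccne2* (SE 0.23, adjusted p = 0.0288). Without endogenous replicate 1, the lowest library for *Ccne1* at 2.29 CPM, its value was 0.79. The lower genes were *Cdk7* at -0.55 (SE 0.12, adjusted p = 0.00493) and *Mnat1* at -0.54 (SE 0.16, adjusted p = 0.0241), both parts of the CDK-activating kinase. The other subunit gene, *Ccnh* (cyclin H), named here after its value was seen, was higher by 0.50 (SE 0.11, adjusted p = 0.00637). On TPM only 1 of the 6 kept a call as higher, and when a single library was left out the number called higher ranged from 3, without MSC-derived replicate 3, to 6.

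The RB, E2F and DP list, with its MuvB partners, had 18 tested genes, with a median of 1.04. Of these 9 were higher, 1 lower and 8 did not pass. The 55.6% that passed compares with 61.6% of all genes tested, of which 31.3% were higher and 30.3% lower. *Rb1*, the substrate of CDK4 and CDK6, was at 37.6, 41.4 and 34.6 CPM against 11.9, 12.2 and 12.3 CPM. MSC-derived libraries were about 3 times as high, a log2 fold change of 1.64 (SE 0.12, adjusted p = 1.68e-05). *Rbl1* (p107) was higher by 1.19 (SE 0.11, adjusted p = 6.56e-05), while *Rbl2* (p130) did not pass at -0.19 (SE 0.18, adjusted p = 0.386). *E2f1*, itself a target of E2F, was higher by 2.14 (SE 0.45, adjusted p = 0.00436) and *Mybl2* by 2.25 (SE 0.76, adjusted p = 0.0339). *E2f5*, a partner of p130, was the lower one, at -1.33 (SE 0.17, adjusted p = 0.000318). *E2f1* and *Mybl2* were lowest in endogenous replicate 1, at 2.33 and 0.352 CPM. Without that library they were higher by 1.68 and 1.65, and the number of the list called higher was 15.

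Genes that degrade G1 regulators through SCF and related ligases numbered 14 tested, of which 4 were higher, 5 lower and 5 did not pass, with a median of -0.07. The 64.3% that passed is near the 61.6% of all genes tested, so the count is no result about the list. *Skp2*, the F-box protein that targets p27 and p21, was at 37.3, 37.6 and 37.8 CPM against 10.1, 4.11 and 6.11 CPM. It was higher by 2.47 on the log2 scale (SE 0.30, adjusted p = 0.000271), and its cofactor *Cks1b* by 1.34 (SE 0.09, adjusted p = 9.8e-06). *Fbxo31*, an F-box protein that acts on cyclin D1, fell by 0.87 (SE 0.15, adjusted p = 0.00166) and *Ddb1*, the adaptor of CUL4 ligases, by 0.66 (SE 0.08, adjusted p = 0.000318). Without MSC-derived replicate 2, or without MSC-derived replicate 3, the number called lower was 3.

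*Cdkn1a* is the best known target of p53, and the other 27 genes of that pathway held 8 higher, 8 lower and 11 that did not pass, with a median of -0.16. The 59.3% that passed is again near the 61.6% of all genes tested, and its equal parts are near the 31.3% and 30.3% given above. The apoptosis genes *Pmaip1* (Noxa) and *Bax* were higher by 1.94 (SE 0.38, adjusted p = 0.00311) and 1.26 (SE 0.16, adjusted p = 0.000293). *Ptpn14*, a phosphatase gene, was at -3.19 (SE 0.30, adjusted p = 6.33e-05) and the death receptor gene *Tnfrsf10b* at -1.88 (SE 0.28, adjusted p = 0.000796). *Mdm2*, the ligase that degrades p53, was at 86.4, 93.3 and 84.0 CPM against 101.5, 112.4 and 116.8 CPM, a log2 fold change of -0.33 (SE 0.09, adjusted p = 0.0139). On TPM 5 were called higher and 12 lower, and without endogenous replicate 1 the numbers were 10 and 12.

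All 25 tested proliferation markers were higher, against 31.3% of all genes tested, with a median of 1.53, and 19 of them passed on TPM. *Mki67* stood at 137.5, 146.9 and 143.7 CPM against 59.1, 41.3 and 40.0 CPM, a log2 fold change of 1.61 (SE 0.16, adjusted p = 7.51e-05). *Plk1* (2.35 on the log2 scale, SE 0.34, adjusted p = 0.000703) and *Birc5* (54.1, 55.2 and 55.9 against 8.63, 13.1 and 14.1 CPM, edgeR adjusted p = 3.76e-05), both active in mitosis, rose most in the list. Genes tied to quiescence or to slowed division mostly went the other way, with a median of -0.68. Of 16 such genes 12 were lower, 2 higher and 2 did not pass, and among all genes tested 30.3% were lower. Without endogenous replicate 1 the number called lower was 14. *Gas1* (growth arrest specific 1) was at 98.5, 99.5 and 93.5 CPM against 593.6, 582.8 and 585.8 CPM, a log2 fold change of -2.60 (SE 0.06, adjusted p = 1.06e-07). The zinc finger gene *Klf9* was at -2.59 (SE 0.09, adjusted p = 2.82e-07), *Txnip*, which encodes a binder of thioredoxin, at 0.73 (SE 0.08, adjusted p = 0.000121) and *Dyrk1b*, a kinase gene known from quiescent cells, at 0.45 (SE 0.13, adjusted p = 0.0204). On TPM *Txnip* and *Dyrk1b* did not pass.

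*Cdkn1c* is imprinted and expressed from the maternal allele, and 11 other growth genes listed as imprinted could be tested. Whether they are imprinted in these cells was not measured. Of these 9 were lower, 1 was higher and 1 did not pass, with a median of -2.64. Among all genes tested 30.3% were lower. *Plagl1*, a zinc finger gene of this group, was at 0.977, 1.11 and 1.92 CPM against 54.1, 49.3 and 51.3 CPM, a log2 fold change of -5.27 (SE 0.25, adjusted p = 1.63e-06). *Peg3* was at -4.61 (SE 0.21, adjusted p = 1.44e-06), and *Cd81*, which lies in the same imprinted domain as *Cdkn1c*, was higher by 0.72 (SE 0.08, adjusted p = 0.000194). The list has *Dcn*, an abundant matrix gene of mesenchymal cells, which is also among the mesenchymal markers given above.

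**Figure D4:**
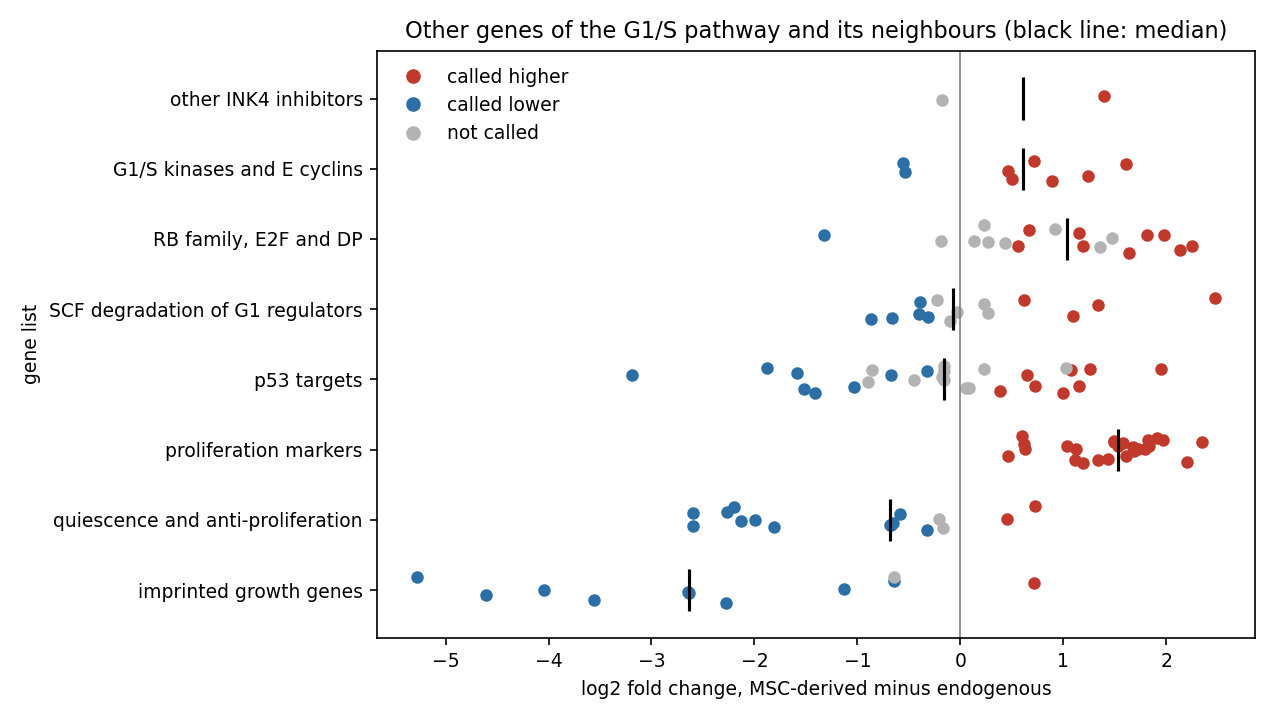
Log2 fold change, MSC-derived minus endogenous, of each tested gene in the 8 lists of other pathway genes, 1 row a list. Red points passed as higher, blue as lower, grey did not pass, and black lines are medians. All 25 proliferation markers lie to the right of 0, and 9 of the 11 genes listed as imprinted are blue and lie to the left.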

How the data were processed

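Bulk RNA sequencing libraries (TruSeq RNA kit, run at BGI) were analysed in 2 groups of 3. Per the methods and the submitters' processing notes, the authors cleaned the reads (SOAPnuke), mapped them (HISAT2, Bowtie2) and estimated gene levels (RSEM); the notes list Bowtie2 2.2.5, RSEM 1.2.12 and mm9, and no coordinates are in the table. The authors deposited, per gene and library, the expected count from RSEM without normalization, FPKM, TPM and a scaled signal. In the genes with enough counts to check, that signal equals the count rounded up times 1 factor per library. It was used as a check only. The 8 columns of group averages were not used.

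Expected counts (20.6% not whole) were rounded and fitted with edgeR 4.0.16 (filterByExpr, TMM, glmQLFit, glmQLFTest, R 4.3.3) over all 14289 genes that passed the filter. P-values are two-sided with Benjamini-Hochberg adjustment over these genes, and genes at 0.05 or less were called. limma 3.58.1 on log2(TPM + 1), log2(FPKM + 1) and log2(FPKM + 0.1), DESeq2 1.42.0, other scalings and filters, a replicate block and leaving out each library were alternatives. The calling script was tested on simulated data in which few genes changed and both groups had the same spread. Because that setting differs from these data, it does not give the error rate here. Depth sets counting error only, with 3 counts as the floor. Shares and ratios of TPM are descriptions. The numbers shared by the libraries of the 2 groups name libraries and were not used in the fit. The 10 genes and all lists were chosen with earlier results of these data known. The text names all 10 genes, from the pathway lists a fixed set (*Cdkn2b*, *Cdkn2d*, *Cdk2*, *Ccne1*, *Ccne2*, *Rb1*, *Rbl1*, *Rbl2*, *E2f1*, *Mdm2*, *Mki67*) with up to 2 called genes a list and direction of largest change, and from cell type lists the gene with the most counts. Protein-coding genes on the opposite strand were named for their overlap.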

Additional observations from a re-analysis of the deposited data

How the results depend on the processing

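Each gene was recomputed under 17 alternatives. The share of all genes called is given for the main fit only, so changed counts below are no result about the genes. *Ccnd1*, *Ccnd3*, *Cdkn1a* and *Cdkn1c* kept their direction and call in all 17, with log2 fold changes from -1.08 to -0.54, 0.79 to 1.35, -2.47 to -1.91 and -3.65 to -3.05. *Cdkn1b* lost its call only with limma on TPM. The number of the 10 genes called higher was 2 and became 4 with library sizes alone, 1 with limma on TPM, 5 with limma on either FPKM scale and 1 at a log2 fold change of at least 1 in size. When 1 library was left out it ranged from 2 to 4, with 4 without endogenous replicate 1, and 3 without endogenous replicate 3. The number called lower was 3, and became 4 with limma on TPM and 2 at that fold. Of the other pathway genes 56 were higher and 36 lower, and at that fold 38 and 22. With limma on TPM these numbers were 38 and 44, and without endogenous replicate 1 they were 65 and 45. With library sizes alone 60 were higher and 31 lower. *Ccnd2*, at 0.01, was -0.00964 with DESeq2, -0.0139 with RLE factors, -0.0740 with upper-quartile factors, -0.0246 with TMM without the 50 genes of most counts and -0.41 on TPM, and ranged from -0.0565, without endogenous replicate 2, to 0.0326, without endogenous replicate 1, when 1 library was left out. On TPM *Cdk4* was -0.15, *Cdk6* -0.15 and *Cdkn2c* -0.13. For these reversals the shift of the median gene on TPM is given above, and the cause was not tested otherwise. *Cdk4* passed as higher with library sizes alone and on both FPKM scales, *Cdkn2c* in the same 3 settings, and *Cdkn2a* on both FPKM scales.

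Of the other named genes, *Ccne1* lost its call in 8 of the 17 alternatives, *Ccne2* and *Dyrk1b* in 7, *Mnat1* and *Mdm2* in 6, *Mybl2* in 4, and *Cdk2* and *Txnip* in 1, limma on TPM. For *Ccne1* these include leaving out any MSC-derived library or endogenous replicate 2, with edgeR adjusted p from 0.0941 to 0.117. Without endogenous replicate 1, log2 fold changes were 2.82 for *Skp2*, 2.49 for *Pmaip1*, 1.98 for *Plk1*, -2.16 for *Tnfrsf10b* and 1.14 for *Cdkn2d*. Shares computed from CPM, without correction for length, were 8.55% and 19.3% for *Ccnd1* (MSC-derived and endogenous), 32.8% and 45.5% for *Ccnd2*, 58.6% and 35.2% for *Ccnd3*, 61.4% and 61.2% for *Cdk4*, 75.9% and 85.3% for *Cdkn1a* and 20.2% and 3.53% for *Cdkn1b*.

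Same-numbered libraries of the groups did not deviate together (correlations of 0.0167, 0.00196 and 0.0210 over genes). With the replicate block 2 of the 10 genes were higher and 3 lower, and *Ccne2*, *Mnat1* and *Dyrk1b* lost their calls. Depth limits mainly *Cdkn2a*, with at most 43 counts in a library.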
